A study of Mus musculus with 16 samples.

Results

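The microglial and complement genes are a list of 34 mouse genes, chosen by symbol from the 46403 gene symbols of the deposited tables. They comprise 9 homeostatic surface and secreted genes, 3 transcription factor genes, 4 complement genes, 9 genes of phagocytic receptors, adaptors and immune signalling, 6 lysosomal and phagosomal genes and 3 genes of MHC class I. Their RNA was measured in 16 libraries from the CA1 subfield of the hippocampus of mice. Of these, 8 libraries came from Fmr1 knockout animals (Fmr1-KO), which lack FMRP, the RNA-binding protein lost in fragile X syndrome, and 8 from C57BL/6 animals (WT). All 16 animals, of both genotypes, were yoked controls of active place avoidance, so no group here was untouched by that task. The labels give the genotype as Fmr1-KO without naming the allele, give no age or sex, and do not say whether the WT animals were littermates.

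Microglia are the resident macrophages of the brain. They depend on signalling through the CSF1 receptor, survey synapses with processes that respond to fractalkine and purines, and engulf synaptic material. C1q is the starter protein of the classical complement cascade, which tags such material, and complement receptor 3 binds targets tagged by complement. In the hippocampus complement and microglia are known for synapse removal during development, and an excess of dendritic spines is a well-known feature of Fmr1 knockout mice. Microglia are a minority of cells in CA1, so their transcripts make up a small part of RNA from the whole subfield, and in such bulk tissue fewer microglia and less RNA per microglial cell cannot be told apart.

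Promoter sequence was read for the genes for which it was given, 27 of the 34 (34 windows of 250 bases ending at the annotated start, RefSeq, GRCm38.p6). PU.1, encoded by the member Spi1, is the factor that defines macrophages and microglia, and interferon-responsive promoters carry repeated GAAA letters. The motif GAGGAAGT, the letters of a strong PU.1 site, was present on either strand in 2.44% of 32851 promoter windows and in those of 2 members, C1qc and Inpp5d. The motif GAAANNGAA was present in 7.13% of windows and in those of 3 members, Aif1, B2m and Ctss. The 2 motifs do not share letters beyond a GAA, and no member window of 250 bases held both. An earlier search used the whole 300-base windows, which run 50 bases past the start, and 4 motifs. There GAGGAAGT was found in 3.20% of windows and in C1qc, Cd53, Ctss and Inpp5d. The shorter GGAAGT was found in 23.8% of windows and in 12 members, C1qb and C1qc among them. A longer interferon response motif was found in 3.44% and in Aif1, B2m and Ctss, and the ETS-IRF composite element in 2.72% and in Cd68. Ctss thus had matches to both GAGGAAGT and the longer interferon response motif in the wider search. The motifs, the window and the 4 promoters printed were chosen after matches had been seen, and a match is a run of letters and not a measured binding site.

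The 4 windows below were picked to set pairs side by side. Of the neighbouring C1q genes, C1qc has the full 8-letter PU.1 match and C1qb does not. The C1qb window does hold the shorter GGAAGT on the reverse strand, not in capitals, as part of the C1qc match also reads. Ctss and B2m, which encode a lysosomal protease and the shared MHC class I light chain, have the interferon response match. Capitals mark the match. It lies 195 to 188 bases before the start in C1qc, where it reads on the reverse strand, 21 to 13 before it in Ctss and 139 to 131 before it in B2m. The windows are chr4:136886201-136886450 (minus strand) for C1qb, chr4:136892915-136893164 (minus strand) for C1qc, chr3:95526536-95526785 (plus strand) for Ctss and chr2:122147437-122147686 (plus strand) for B2m. The GENCODE M21 annotation starts C1qc at 136893065, inside its window, so the distance of the C1qc match to the start depends on the annotation.
C1qb: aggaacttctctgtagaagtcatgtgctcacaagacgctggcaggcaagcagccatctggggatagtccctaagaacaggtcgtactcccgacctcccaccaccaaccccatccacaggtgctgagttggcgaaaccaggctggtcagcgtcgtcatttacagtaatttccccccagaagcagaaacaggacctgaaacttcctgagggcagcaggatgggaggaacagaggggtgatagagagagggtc
C1qc: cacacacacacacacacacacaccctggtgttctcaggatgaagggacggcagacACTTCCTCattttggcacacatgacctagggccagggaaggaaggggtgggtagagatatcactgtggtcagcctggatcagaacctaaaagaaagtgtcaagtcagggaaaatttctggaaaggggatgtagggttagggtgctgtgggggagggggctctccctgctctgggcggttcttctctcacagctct
Ctss: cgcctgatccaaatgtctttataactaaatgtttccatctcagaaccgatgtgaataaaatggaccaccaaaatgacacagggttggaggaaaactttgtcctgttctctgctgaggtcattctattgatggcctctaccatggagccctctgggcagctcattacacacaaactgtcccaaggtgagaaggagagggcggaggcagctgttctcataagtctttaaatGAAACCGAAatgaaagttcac
B2m: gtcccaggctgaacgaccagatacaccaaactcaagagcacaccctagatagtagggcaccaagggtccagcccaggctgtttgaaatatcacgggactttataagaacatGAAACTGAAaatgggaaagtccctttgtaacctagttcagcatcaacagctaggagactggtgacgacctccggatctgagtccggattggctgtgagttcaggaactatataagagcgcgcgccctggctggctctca

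The libraries were shallow for genes of this abundance. Total estimated counts ran from 515103 to 3275003 per library, and the 34 genes together took 0.0547% to 0.118% of them. WT replicate 6 (515103) and WT replicate 3 (878484) were under 1000000, while the other 14 libraries had 1480966 or more. In WT replicate 6 the 10 most abundant genes took 31.6% of counts and protein-coding transcripts 58.4%, and in WT replicate 3 they took 10.4% and 80.7%, against 3.73% to 6.06% and 87.6% to 91.8% elsewhere. Because both libraries were WT, the fitted differences of the tested members are also given without them where the text turns on them. Fmr1, the targeted gene, checked the labels. It stood at 58.1 ± 19.4 CPM (counts per 1000000 of the scaled library size; SD, n = 8) in WT and 22.2 ± 7.08 in Fmr1-KO, and fell by 1.41 on the log2 scale (SE 0.22, Benjamini-Hochberg adjusted p = 0.0112, edgeR), and by 1.51 without both shallow libraries. The cell types were checked by markers. The 8 microglial markers, of which 7 are members, summed to between 137 and 467 CPM, and 6 of the 8 were present in every library, while Tmem119 and Gpr34 were at 0 in 1 library each. Neutrophil and monocyte markers summed to at most 2.07 CPM, with S100a8, S100a9 and Ngp at 0 in all libraries. The 9 perivascular macrophage markers summed to 6.02 to 42.9 CPM in WT and 4.74 to 18.2 CPM in Fmr1-KO. Of these Lyve1 and Pf4 were at 0 throughout, while Stab1 was above 0 in all 16 libraries and Mrc1 in 8, and the only one tested, Stab1, had a log2 fold change of −0.64 (SE 0.38).

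No member of the list was called different between the genotypes. Of the 34 members, 26 passed the filter on low counts, and 0 of the 26 had an adjusted p under 0.05 (quasi-likelihood test of edgeR, Benjamini-Hochberg over 11515 genes), against 0.0174% of all genes tested (2 genes, Ccnd2 and Fmr1). The smallest adjusted p was 0.568, for Sall1. At an unadjusted p under 0.05 there were 5 members lower in Fmr1-KO, Sall1, Lgmn, Cst3, Laptm5 and B2m, beside 4.28% of all genes, and 0 higher, beside 3.61% of all genes. The fitted difference was below 0 in 25 of the 26 members, Cd68 being the exception, and in 51.9% of all genes. The median log2 fold change, Fmr1-KO over WT, was −0.39 over these members and −0.01 over all genes. For all 34 members the ranges of the 2 genotypes overlapped, and in 11 of the 26 the standard error was larger than the fitted difference. At least 5 of the 8 Fmr1-KO libraries lay below the WT median in 21 of the 26 members, and at least 7 did in 8 members. The lowest such count was 3 of 8, in Cd68 and H2-D1. Overlap, standard errors and libraries below the median were not counted over all genes, so none can be read as particular to the members.

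Without WT replicates 3 and 6 the fitted differences were smaller in most members. Again 26 were tested and 0 were called, beside 0.0169% of 11866 genes, and the smallest Benjamini-Hochberg adjusted p from edgeR was 0.644, for B2m. At an unadjusted p under 0.05 there were 3 members lower, Sall1, Cst3 and B2m, beside 3.33% of all genes, and 0 higher, beside 3.99%. The fitted difference was below 0 in 22 members, beside 50.3% of all genes, and their median was −0.21. In 17 of the 26 the fitted difference was closer to 0 than with all libraries. Those that turned above 0 were Ptprc, Mpeg1 and H2-K1, beside Cd68, which stayed above.

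**Figure D1:**
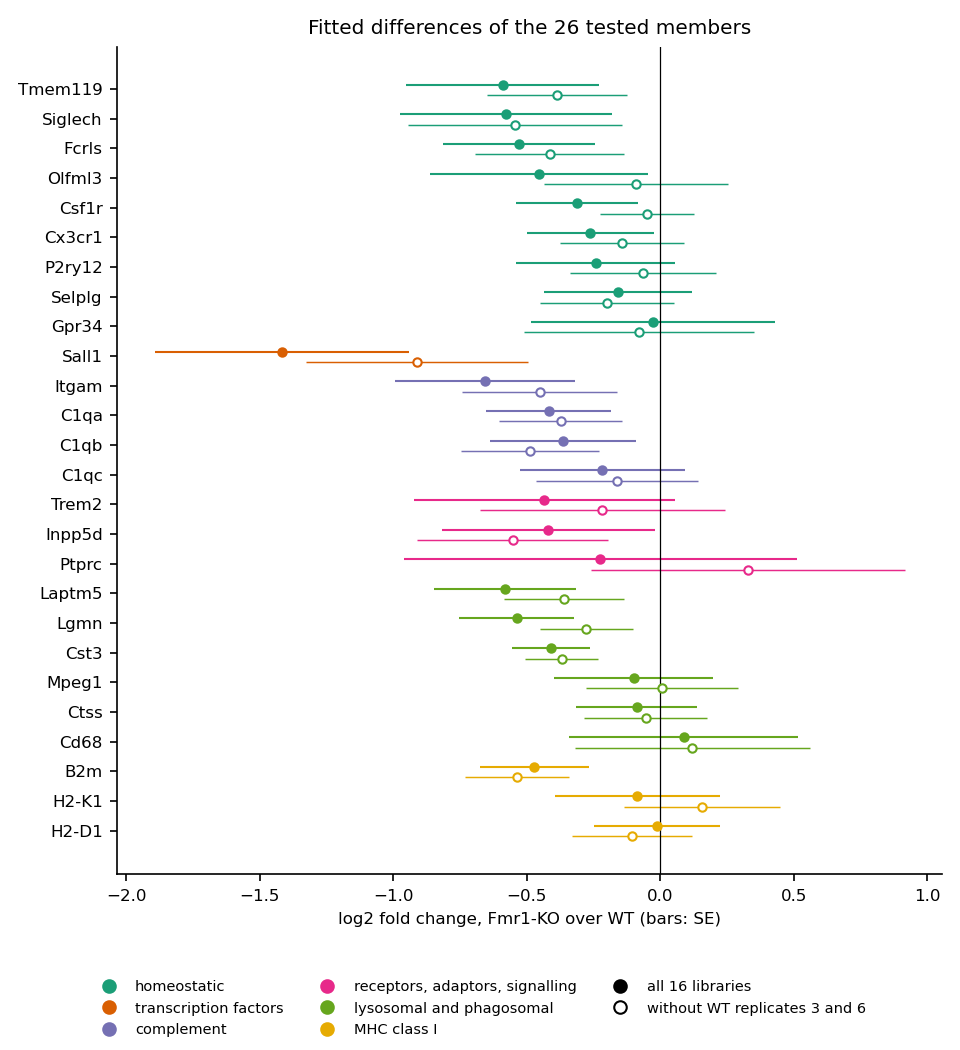
Fitted log2 fold change (Fmr1-KO over WT, x axis) of the 26 tested members, grouped by role, with bars of 1 standard error; filled points are all 16 libraries and open points leave out WT replicates 3 and 6. With all libraries 25 of 26 points lie left of 0, between −1.42 for Sall1 and 0.09 for Cd68, and 0 of them were called.

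Levels per transcript length were given as transcripts per 1000000 (TPM) and ranked the members far apart. Cst3, which encodes the secreted protease inhibitor cystatin C and is also made by astrocytes and neurons, had a median of 664 TPM over the 16 libraries. B2m followed at 54.7, Lgmn at 50.9, C1qb at 30.9, C1qa at 29.1, Csf1r at 27.9, Ctss at 25.7 and C1qc at 21.6 TPM. Lowest were Cd53 at 2.32, Spi1 at 1.99, Sall1 at 1.70 and Ptprc at 1.51 TPM. Neighbours in this order had overlapping ranges, Cst3 and B2m only through the lowest Cst3 library (WT replicate 6, 87.2 TPM). TPM was low in WT replicate 6 for most members, with Csf1r at 3.89 TPM there and 17.3 to 41.7 TPM in the other 15 libraries.

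**Figure D2:**
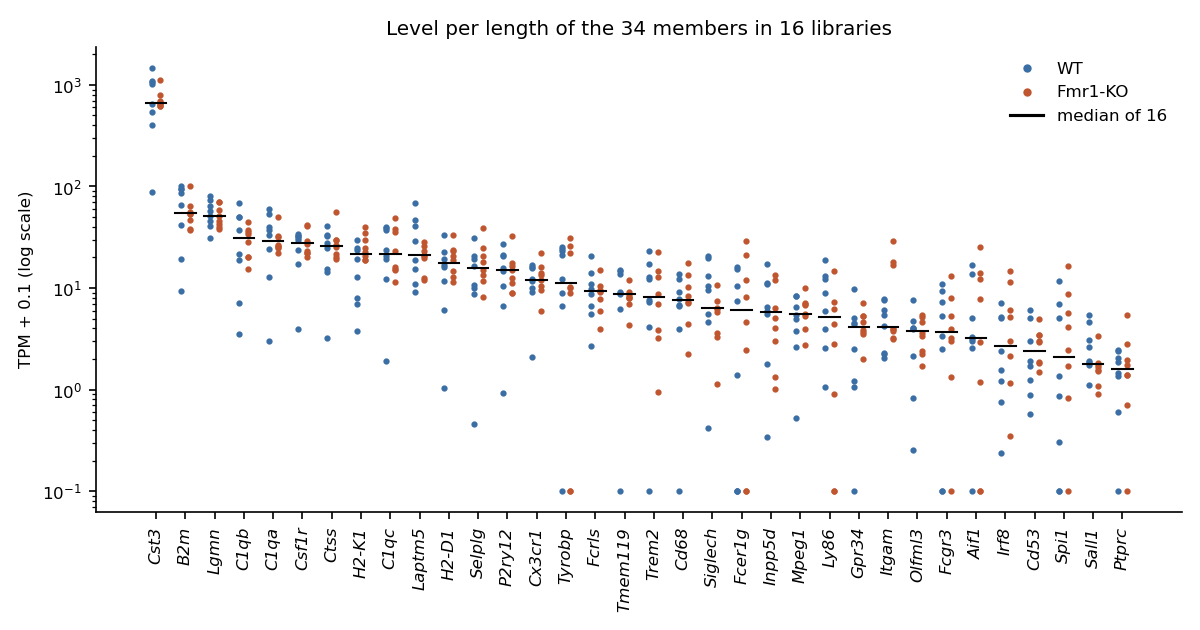
Level per length of each of the 34 members (TPM plus 0.1, log axis), ordered by the median of 16 libraries (black bars), with 1 point per library and colours for the genotypes. Cst3 stands at a median of 664 TPM and the remaining members between 54.7 (B2m) and 1.51 (Ptprc); the low WT points are mostly WT replicate 6, and points at the bottom are libraries at 0.

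Of the homeostatic genes, which mark resting microglia, all 9 were tested and all 9 had a fitted difference below 0, with a median of −0.31. Csf1r, the receptor that microglia need to survive, had the highest level. It ranged from 57.6 CPM through a median of 64.9 to 167 CPM in WT and from 42.3 through 52.9 to 96.8 CPM in Fmr1-KO. The highest value belonged to WT replicate 3, with the next WT library at 72.2 CPM, and Fmr1-KO replicates 1 and 2 (96.6 and 96.8 CPM) lay above all WT libraries except that one. The other 6 Fmr1-KO libraries lay below every WT library, at 54.3 CPM or less. The fitted log2 fold change of Csf1r was −0.31 (SE 0.23, Benjamini-Hochberg adjusted p = 0.758, edgeR) and −0.05 (SE 0.18) without WT replicates 3 and 6.

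Cx3cr1, the fractalkine receptor, ranged from 22.5 through 28.3 to 44.1 CPM in WT and from 11.1 through 23.5 to 50.1 CPM in Fmr1-KO, so that Fmr1-KO libraries were both the lowest and the highest. Its log2 fold change was −0.26 (SE 0.24), and −0.14 without the 2 shallow libraries. Tmem119, a surface protein specific to microglia in the brain, ranged from 0 through 12.4 to 38.4 CPM in WT, these extremes being WT replicates 6 and 3, and from 5.4 through 8.4 to 15.5 CPM in Fmr1-KO. Of the 8 Fmr1-KO libraries 7 lay below the WT median of Tmem119, and its log2 fold change was −0.59 (SE 0.36), and −0.39 (SE 0.26) without those libraries. Fcrls, an Fc receptor-like scavenger gene of mouse microglia, ranged from 10.7 through 13.4 to 27.1 CPM in WT and from 5.12 through 9.72 to 19.7 CPM in Fmr1-KO, with 6 of 8 Fmr1-KO libraries below the WT median. Its log2 fold change was −0.53 (SE 0.28), and −0.41 without them.

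The other homeostatic members were lower expressed or closer to WT. The purine receptor gene P2ry12 had a log2 fold change of −0.24 (SE 0.30), the sialic acid-binding lectin gene Siglech −0.58 (SE 0.40), the lysophospholipid receptor gene Gpr34 −0.03 (SE 0.46), the secreted olfactomedin-like gene Olfml3 −0.45 (SE 0.41) and Selplg, the gene of P-selectin ligand, −0.16 (SE 0.28). Without WT replicates 3 and 6 these were −0.06, −0.54, −0.08, −0.09 and −0.20. The change was widest for Olfml3, for which WT replicate 3 stood at 32.3 CPM and the next WT library at 10.02. The median of the 9 homeostatic genes was −0.14 without both libraries. Over the 9 genes the Benjamini-Hochberg adjusted p from edgeR ran from 0.665 to 0.993.

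Summed over the 9 homeostatic genes, WT libraries ranged from 141 through 170 to 362 CPM and Fmr1-KO libraries from 121 through 130.0 to 249 CPM. In Fmr1-KO 6 of 8 libraries lay below the lowest WT library, at 133 CPM or less, and replicates 1 and 2 (249 and 189 CPM) lay above every WT library but replicate 3. Csf1r made up 39.8% of this sum on average, so it weighs heavily in the sum, but the libraries did not rank alike in both. The lowest WT library was replicate 4 in Csf1r (57.6 CPM) and replicate 1 in the sum (141 CPM). The sums are a description made after the values had been seen and carry no test.

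**Figure D3:**
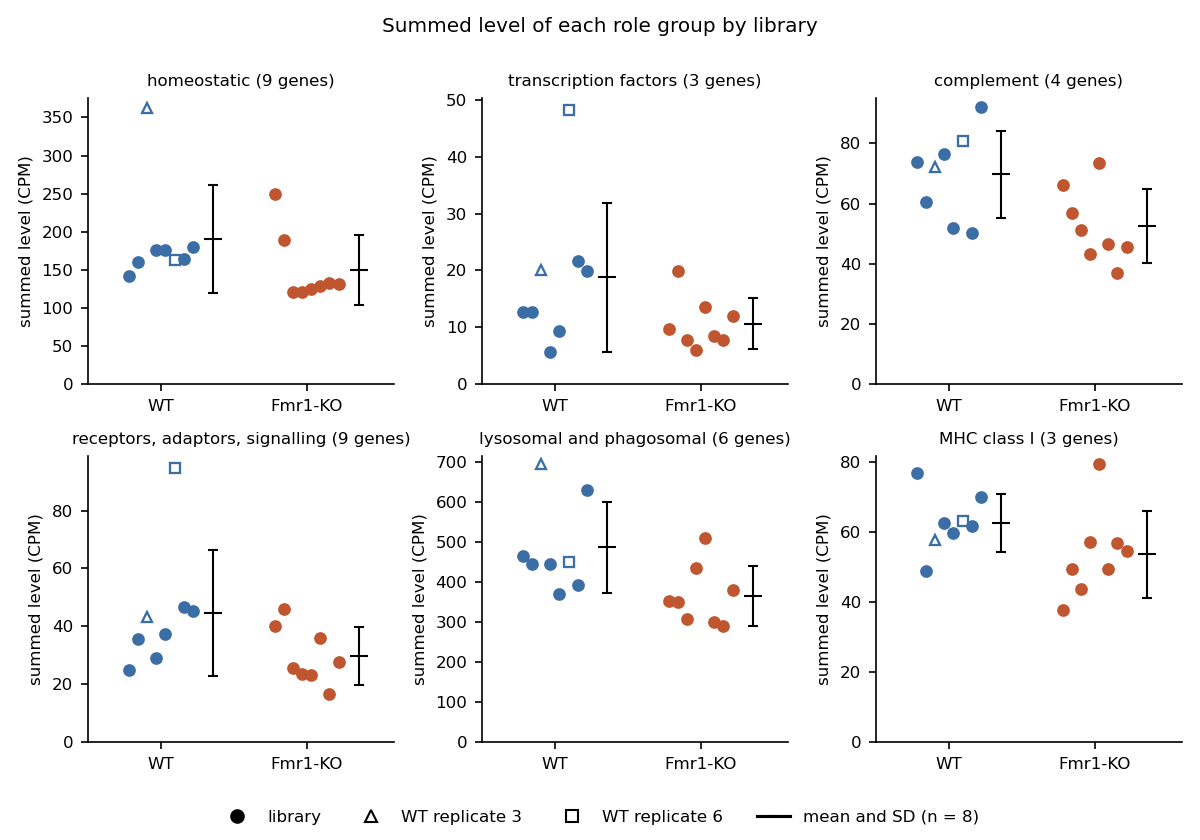
Summed level (CPM) of each role group by library, with 1 point per library, WT replicates 3 and 6 as open symbols and the mean and SD of 8 libraries beside each group. In the homeostatic panel 6 Fmr1-KO libraries sit at 133 CPM or less, below all WT libraries, while WT replicate 3 stands at 362 CPM; every panel shows overlap between the genotypes.

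Among the transcription factor genes only Sall1 was tested. SALL1 holds the microglial identity in the adult brain, and the gene is also transcribed in other cells of the developing brain. Sall1 ranged from 2.62 through 10.5 to 45.1 CPM in WT and from 2.02 through 4.50 to 10.5 CPM in Fmr1-KO. WT replicate 6 held the highest value, from 15 estimated counts, and the next WT library stood at 18.0 CPM, while the lowest WT library, replicate 4, lay below 7 of the Fmr1-KO libraries. Of the Fmr1-KO libraries 7 of 8 lay below the WT median. The log2 fold change of Sall1 was −1.42 (SE 0.48, unadjusted p = 0.00692, Benjamini-Hochberg adjusted p = 0.568, edgeR). Without WT replicates 3 and 6 it was −0.91 (SE 0.42, Benjamini-Hochberg adjusted p = 0.656, edgeR). Over all 16 libraries it rested on 263 estimated counts. Spi1, which encodes PU.1, and Irf8, its partner in macrophages, were not tested, with 90 and 105 estimated counts over all libraries. Spi1 was at 0 in 3 libraries, and its median level was 1.04 in WT and 2.29 in Fmr1-KO (CPM). Irf8 had medians of 2.58 and 2.95 CPM, and the ranges of the genotypes overlapped in both genes.

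All 4 complement genes had fitted differences below 0, with a median of −0.39, and −0.41 without WT replicates 3 and 6. C1qa, C1qb and C1qc encode the 3 chains of C1q and lie side by side on the minus strand of chromosome 4, within 18.7 kb (GRCm38, 136880129 to 136898803, GENCODE M21). C1qa ranged from 10.5 through 17.4 to 27.6 CPM in WT and from 11.1 through 12.8 to 21.9 CPM in Fmr1-KO. The lowest library of C1qa was WT replicate 5, but 7 of 8 Fmr1-KO libraries lay below the WT median. The fitted value was −0.42 on the log2 scale (SE 0.24, Benjamini-Hochberg adjusted p = 0.670, edgeR).

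C1qb ranged from 8.40 through 16.2 to 31.4 CPM in WT and from 8.37 through 13.8 to 24.3 CPM in Fmr1-KO, nearly the same span, with 5 of 8 Fmr1-KO libraries below the WT median. C1qc ranged from 9.03 through 16.5 to 26.4 CPM in WT and from 6.06 through 11.8 to 25.9 CPM in Fmr1-KO, where 4 libraries lay at 9.45 CPM or less and 2 at 23.9 CPM or more. The log2 fold changes were −0.36 (SE 0.27) for C1qb and −0.22 (SE 0.31) for C1qc. Without the 2 shallow libraries C1qa, C1qb and C1qc had −0.37, −0.49 and −0.16. The libraries did not rank alike across the 3 chains. WT replicate 3 was the highest WT library in C1qa and C1qc and the lowest in C1qb, where it held 7 estimated counts. The promoters of C1qb and C1qc printed above both hold GGAAGT, and that of C1qc the full GAGGAAGT. The differences of these genes lay 0.15 apart with all libraries and 0.33 apart without WT replicates 3 and 6. In the fit without those libraries the standard errors were 0.26 for C1qb and 0.30 for C1qc. The difference between the 2 genes was not tested.

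Itgam encodes CD11b, the alpha chain of complement receptor 3, which binds targets tagged by complement. It ranged from 6.49 through 13.8 to 44.6 CPM in WT and from 5.54 through 8.84 to 16.4 CPM in Fmr1-KO. WT replicate 6 held the highest value, from 14.8 estimated counts, and the next WT library stood at 17.7 CPM. In Fmr1-KO 7 of 8 libraries lay below the WT median. The log2 fold change of Itgam was −0.66 (SE 0.34, Benjamini-Hochberg adjusted p = 0.654, edgeR), and −0.45 (SE 0.29) without WT replicates 3 and 6. Summed over the 4 complement genes, WT libraries ranged from 50.3 through 72.8 to 92.2 CPM and Fmr1-KO libraries from 37.0 through 48.9 to 73.5 CPM, and 4 Fmr1-KO libraries lay below the lowest WT library. Neither shallow library held the highest sum, which was that of WT replicate 8.

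**Figure D4:**
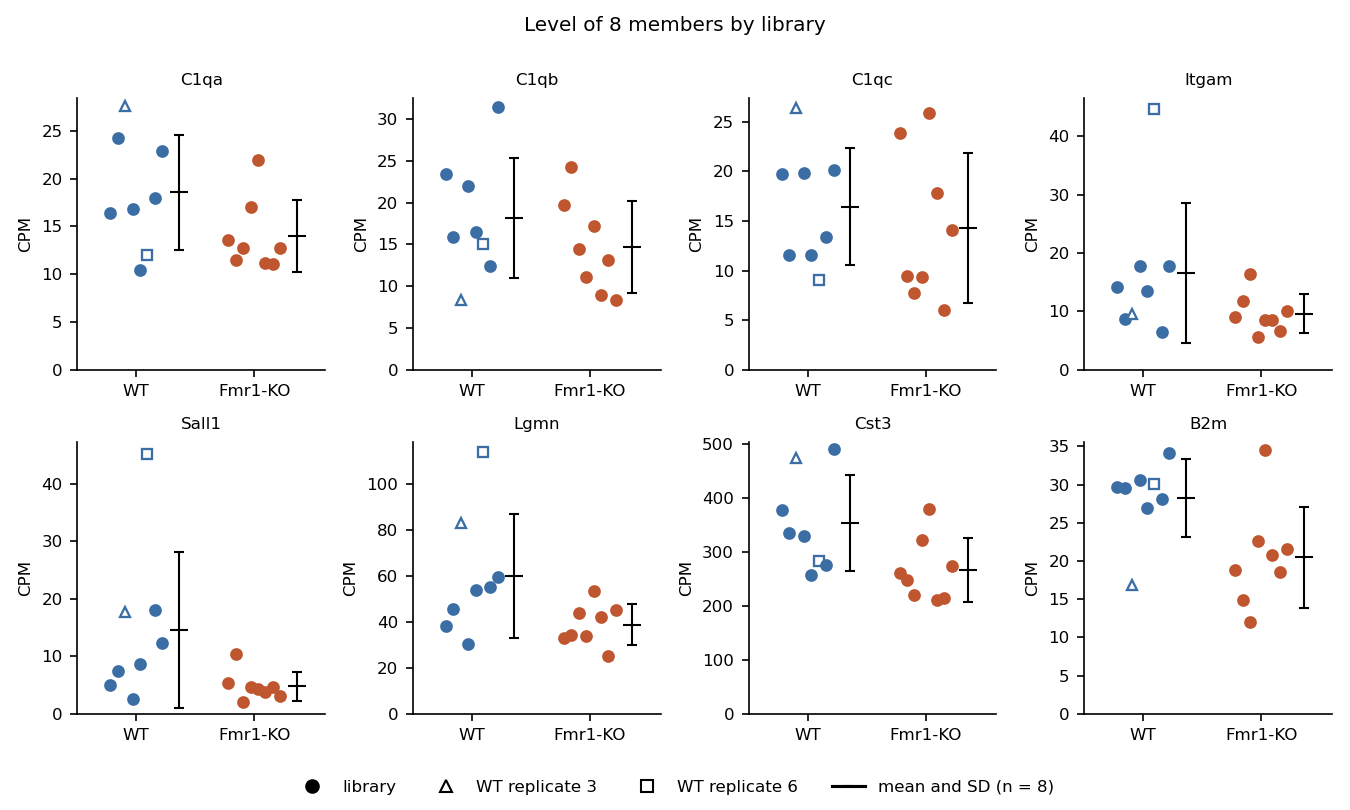
Level (CPM) by library of 8 members, the 4 complement genes and Sall1, Lgmn, Cst3 and B2m, chosen after their values had been seen, with the mean and SD of 8 libraries beside each genotype. Open symbols are WT replicates 3 and 6, which hold the highest values of C1qa, C1qc, Itgam, Sall1 and Lgmn; all 8 panels show overlap between the genotypes.

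Receptors, adaptors and immune signalling genes were the least well measured. Only 3 of the 9 were tested. Trem2, a lipid receptor that drives phagocytosis, had a median of 4.54 in WT and 3.87 in Fmr1-KO (CPM), with a log2 fold change of −0.43 (SE 0.49), and −0.22 without WT replicates 3 and 6. Inpp5d, the gene of the lipid phosphatase SHIP1, which dampens such signalling, had medians of 12.2 and 8.04 CPM, and 7 of 8 Fmr1-KO libraries lay below the WT median. Its log2 fold change was −0.42 (SE 0.40), and −0.55 (SE 0.36) without those libraries. Ptprc, which encodes CD45, a phosphatase of all leukocytes, had medians of 3.65 and 3.94 CPM. In WT replicate 6 it stood at 38.7 CPM from 12.9 estimated counts, of which 11 were assigned to the intron-retaining transcript Ptprc-012, and the next WT library stood at 6.46 CPM. Its log2 fold change of −0.22 (SE 0.74) turned to 0.33 (SE 0.59) without WT replicates 3 and 6.

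The other 6 did not reach the filter, and their values are estimated counts summed over 16 libraries. The signalling adaptor genes Tyrobp (DAP12) and Fcer1g had 116 and 64.0, the Fc receptor gene Fcgr3 109, the tetraspanin gene Cd53 99.0, Ly86, which encodes MD-1, 117, and Aif1, which encodes the microglial stain IBA1, 57. Tyrobp, Fcgr3 and Aif1 were at 0 in 3 libraries each, Fcer1g in 5 and Ly86 in 2. Ly86 ranged from 0.760 to 35.1 CPM in WT, the highest being WT replicate 6 with 11.7 estimated counts, and from 0 to 7.20 CPM in Fmr1-KO. Fitted with no filter on low counts, Ly86 had a log2 fold change of −1.76 (SE 0.77, Benjamini-Hochberg adjusted p = 0.333, edgeR). The unadjusted p of Ly86 was 0.0281 there. The other 5 had fitted values between −0.50 (SE 0.70, Tyrobp) and 0.12 (SE 0.72, Fcgr3) in that fit.

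The lysosomal and phagosomal genes held 3 of the 5 members with an unadjusted p under 0.05. Cst3 ranged from 256 through 332 to 490 CPM in WT and from 210.4 through 254 to 379 CPM in Fmr1-KO, with 7 of 8 Fmr1-KO libraries below the WT median. It had the smallest standard error of all 26 members, with a log2 fold change of −0.41 (SE 0.14, unadjusted p = 0.00986, Benjamini-Hochberg adjusted p = 0.572, edgeR), and −0.37 (SE 0.14) without WT replicates 3 and 6. The highest WT library was replicate 8, which was not shallow. Cst3 made up 72.4% of the summed level of this group and 40.2% of that of all 34 members.

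Lgmn encodes legumain, a lysosomal protease. It ranged from 30.3 through 54.5 to 114 CPM in WT and from 25.0 through 38.1 to 53.4 CPM in Fmr1-KO. All 8 Fmr1-KO libraries lay below the WT median, which held for no other tested member. Without WT replicates 3 and 6 in that median it was 7 of 8, and neither count was made over all genes. WT replicates 6 and 3 were the highest at 114 and 82.8 CPM. In these 2 libraries 25.8 of 37.8 and 44.9 of 68.9 estimated counts of Lgmn were assigned to Lgmn-003, a transcript annotated as retaining an intron, which took 16.9% of the counts of Lgmn over all libraries. The log2 fold change of Lgmn was −0.54 (SE 0.22, Benjamini-Hochberg adjusted p = 0.590, edgeR). It was −0.28 (SE 0.18) without WT replicates 3 and 6 and −0.27 (SE 0.19) when only protein-coding transcripts were counted.

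Laptm5, a lysosomal membrane protein gene of haematopoietic cells, ranged from 19.4 through 28.7 to 79.2 CPM in WT and from 14.1 through 23.4 to 35.4 CPM in Fmr1-KO. The highest value was that of WT replicate 3, with the next WT library at 47.5 CPM. Its log2 fold change was −0.58 (SE 0.27, unadjusted p = 0.0394, Benjamini-Hochberg adjusted p = 0.624, edgeR), and −0.36 (SE 0.22) without WT replicates 3 and 6. The protease gene Ctss, the macrophage pore-forming gene Mpeg1 and Cd68, a lysosomal glycoprotein used as a phagocytosis marker, lay near WT, with −0.09 (SE 0.23), −0.10 (SE 0.30) and 0.09 (SE 0.43). Of these Cd68 was the only tested member with a fitted difference above 0. The median of the group was −0.25, and −0.17 without WT replicates 3 and 6.

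Of the MHC class I genes, B2m encodes the light chain beta-2 microglobulin. It ranged from 16.8 through 29.6 to 34.2 CPM in WT and from 12.1 through 19.8 to 34.5 CPM in Fmr1-KO. In WT 7 libraries lay within 26.9 to 34.2 CPM and replicate 3 below them, and in Fmr1-KO 7 libraries lay at 22.6 CPM or less and replicate 5 above them. The log2 fold change of B2m was −0.47 (SE 0.20, unadjusted p = 0.0302, Benjamini-Hochberg adjusted p = 0.619, edgeR). It was −0.54 (SE 0.19, unadjusted p = 0.0111, edgeR, Benjamini-Hochberg adjusted p = 0.644) without WT replicates 3 and 6, so that B2m, unlike 17 of the 26 members, did not come closer to 0. The heavy chain genes H2-D1 and H2-K1 had −0.01 (SE 0.24) and −0.09 (SE 0.31). Both are near-identical to other class I genes, among which the estimated counts can be split, and the reads of H2-K1 fell to protein-coding transcripts in only 68.3% of its counts. The interferon response letters printed above for Ctss and B2m belong to 1 gene near WT and 1 of the 5 with an unadjusted p under 0.05.

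The tables list 139 transcripts for the 34 members, and 8 members have 1 transcript. In 23 members over 90% of the estimated counts went to protein-coding transcripts and in 5 under 60% did, namely Aif1, Fcgr3, Olfml3, Ptprc and Siglech. For some members the split changed from library to library within a genotype. Itgam-201 had at least 0.5 estimated counts in 4 WT and 3 Fmr1-KO libraries and Itgam-007 in 5 and 5, and Lgmn-001 was at 0 in WT replicates 3, 5 and 6 and in Fmr1-KO replicates 2 and 7. For Fcgr3 each library with a count had it in 1 transcript. This was the intron-retaining Fcgr3-003 in 6 of 8 Fmr1-KO libraries and in 1 of 8 WT libraries, and the protein-coding Fcgr3-001 in 1 and 4 of them. Of the Siglech counts, the transcript annotated for nonsense-mediated decay, Siglech-002, took 84.6% in Fmr1-KO and 27.4% in WT. These shares rest on 109 and 260 estimated counts over all libraries and were not tested, and gene sums were used for every comparison.

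Related genes outside the list, from 6 lists of the same pathways, gave 0 calls. Of 14 other complement genes tested 9 were lower, 3 of them at an unadjusted p under 0.05. Among these were Clu, or clusterin (−0.21, SE 0.10), and Cd59a, an inhibitor of the membrane attack complex (−1.20, SE 0.57), and without WT replicates 3 and 6 they had −0.22 and −0.23. Csmd1, a neuronal complement inhibitor, had 0.31 (SE 0.16), and 0.25 without them. Clu, Cd59a and Csmd1 are expressed by astrocytes, neurons or endothelium as well as, or instead of, microglia. Of 15 ligands and receptors through which neurons and microglia communicate 9 were lower and 0 had an unadjusted p under 0.05. Among them the protective signal gene Cd47 had 0.26 (SE 0.12), the TGF-beta receptor genes Tgfbr1 and Tgfbr2 −0.65 (SE 0.33) and −0.83 (SE 0.48), and the engulfment receptor gene Mertk −0.29 (SE 0.26). With WT replicates 3 and 6 left out these were 0.22, −0.55, −0.45 and −0.04. Of 20 other lysosomal genes 13 were lower, 2 at an unadjusted p under 0.05, among them the cathepsin gene Ctsz (−0.60, SE 0.21). The cathepsin genes Ctsb and Ctsa had −0.18 (SE 0.11) and −0.20 (SE 0.14). Without WT replicates 3 and 6 Ctsz had −0.60, Ctsb −0.29 and Ctsa −0.15.

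Of 6 tested genes of activated microglia 6 were lower, with a median of −0.26, and −0.07 without WT replicates 3 and 6, where 3 of 6 were lower. Apoe, the lipid carrier made mostly by astrocytes, had the 1 unadjusted p under 0.05 (−0.33, SE 0.13), and Lpl, Cd9 and Axl had −0.32, −0.27 and −0.21. Leaving out WT replicates 3 and 6, Apoe had −0.21 (unadjusted p = 0.0647, edgeR), Lpl −0.31, and Cd9 and Axl were both at 0.07. Only 3 of 12 interferon response genes were tested. Among these the transcription factor genes Stat2 and Irf9 had fitted differences of 0.16 (SE 0.17) and 0.26 (SE 0.30), and 0.13 and 0.30 without WT replicates 3 and 6. Of 6 other MHC class I pathway genes tested 5 were lower, with Canx at −0.09, Pdia3 at −0.10, H2-T22 at −0.31 and Tap2 at −0.54, and at −0.09, −0.20, −0.39 and −0.73 without those libraries. In these 6 lists 0 of the genes tested were higher at an unadjusted p under 0.05 with all libraries. With no filter on low counts 1 other complement gene, 2 ligand and receptor genes and 1 gene of activated microglia were, and without WT replicates 3 and 6 it was 1 other lysosomal gene. C1s and Lilrb4 were not matched as symbols, and Axl and Itgax stand in more than 1 list.

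Markers of astrocytes, of oligodendrocytes and of endothelium and pericytes had fitted differences on the same side as the microglial genes. The differences were below 0 in 8 of 8 astrocyte markers (median −0.35, and −0.10 without WT replicates 3 and 6), in 7 of 7 oligodendrocyte markers (−0.37 and −0.38) and in 10 of 10 tested markers of endothelium and pericytes (−0.67 and −0.35), against 4 of 7 markers of CA1 pyramidal neurons (−0.06 and −0.04). Without WT replicates 3 and 6 the differences were below 0 in 6 of 8 astrocyte, 7 of 7 oligodendrocyte, 9 of 10 endothelial and pericyte and 4 of 7 neuronal markers. Of the red blood cell markers 2 of 3 tested were lower, and the 1 choroid plexus marker tested, Kl, had 0.18 (SE 0.16). None of these markers was called. Astrocyte markers summed to 1779 to 5374 CPM in WT and 1586 to 2530 CPM in Fmr1-KO, and the median sum was higher in Fmr1-KO (2228 CPM) than in WT (1961 CPM). Oligodendrocyte markers summed to 248 to 669 CPM in WT and 228 to 447 CPM in Fmr1-KO, with medians of 484 and 380 CPM. Those of endothelium and pericytes summed to 114 to 478 and 92.5 to 172 CPM, with medians of 191 and 137 CPM. WT replicate 3 held the highest astrocyte sum (5374 CPM, with all other libraries at 2530 or less), the highest endothelial sum (478 CPM, others 304 or less) and the highest perivascular macrophage sum (42.9 CPM, others 24.8 or less). It was also the library in which the 26 tested members deviated most from their own mean, by a median of 0.82 on the log2 CPM scale, with the others between −0.32 and 0.39. The part of these cell types and of WT replicate 3 in the differences of the microglial genes was not tested beyond leaving that library out.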

How the data were processed

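RNA of the CA1 subfield was sequenced from 8 Fmr1-KO and 8 WT mice, 1 library per animal. The labels name each animal by a number and the letter B or D, and each such name was taken as a separate animal. In both genotypes most libraries share their number with another library of that genotype and differ from it in the letter. The labels do not say what a shared number means and say nothing of separate litters or days. Sharing of numbers was not modelled. The p-values therefore treat libraries of a genotype as independent and measure only the spread between these animals. Per the file headers, the authors deposited, for each of 111706 transcripts, kallisto estimated counts, TPM, length and effective length. The tools listed in the submitters' processing notes are FastQC, cutadapt, kallisto and DESeq2, and their versions, the index and the genome build were not given in the sources used here.

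The deposited estimated counts were summed by gene symbol and rounded. Genes passing filterByExpr (minimum count 10) were scaled by TMM and tested with edgeR 4.0.16 (glmQLFit and glmQLFTest, R 4.3.3), with Benjamini-Hochberg adjustment over all 11515 genes and a threshold of 0.05. Levels are CPM on the TMM scale, and TMM gave WT replicate 6 a factor of 0.673. Standard errors are the fitted difference divided by the square root of F. Levels per length use the deposited TPM summed by symbol. In the alternatives DESeq2 1.42.0 and limma 3.58.1 were used, and TPM fits were centred on the median gene, because the Fmr1-KO libraries were higher by 0.55 (log2 of TPM plus 1) over the genes tested. The TPM centring was corrected once after first results had been seen, so that p and fold change refer to the same values. The edgeR fit was tested on simulated data.

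All 34 members are reported, and of each list of related genes up to 4 with the smallest p, less a few genes not reported here. The members, lists and alternatives were chosen with earlier results of these data known. Positions are from GENCODE M21 (GRCm38) and promoters from RefSeq (GRCm38.p6). The letter B or D in the animal names was tried as a covariate.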

Additional observations from a re-analysis of the deposited data

Results flagged for a closer look

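Levels of the 26 tested members, of the 6 role groups and of all 34 members were searched in each genotype for a single library that stood apart from the other 7, by a gap to the nearest library of over 0.526 of the whole range. This held in 18 of 66 groups of libraries, where chance gives about 1 in 20 for normally distributed values of equal spread. The levels searched were unlogged CPM, often from few counts and from libraries of unequal depth, so that rate need not hold for them. The levels of 1 library are also not independent of each other, and the sums hold the same genes. Of the 18, 7 were WT replicate 3, 5 were WT replicate 6 and 6 were Fmr1-KO libraries.

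WT replicate 3 was the highest WT library in Csf1r (166.9 CPM, nearest 72.2), Tmem119 (38.42, nearest 15.7), Olfml3 (32.35, nearest 10.02), Trem2 (15.61, nearest 6.49), Laptm5 (79.24, nearest 47.5) and the sum of the homeostatic genes (362.2, nearest 179.5), and the lowest in B2m (16.81, nearest 26.9). WT replicate 6 was the highest in Sall1 (45.13 CPM, nearest 18.0), Itgam (44.59, nearest 17.7), Ptprc (38.75, nearest 6.46), the sum of the transcription factor genes (48.14, nearest 21.7) and that of the receptor and signalling genes (94.86, nearest 46.6). Each of these values of WT replicate 6 for a single gene rested on 15 estimated counts or fewer.

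Among Fmr1-KO libraries replicate 1 was the highest in Cx3cr1 (50.06 CPM, nearest 28.6), replicate 2 in Sall1 (10.49, nearest 5.42) and Ptprc (15.53, nearest 5.95), and replicate 5 in Ctss (33.76, nearest 21.3), B2m (34.48, nearest 22.6) and the sum of the MHC class I genes (79.51, nearest 57.2).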

How the results depend on the processing

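The alternatives were chosen with earlier results of these data known, and the fit on protein-coding transcripts only was added after seeing the data. In every fit run, 0 members were called at an adjusted p of 0.05 (Benjamini-Hochberg) and 0 were higher at an unadjusted p under 0.05. DESeq2 gave an adjusted p to only 1 of 34 members with all libraries (Cst3, 0.166, the smallest of any fit) and to all 34 without WT replicates 3 and 6 (smallest 0.928). DESeq2 called 16 of 2862 genes, 6 of 26112 without WT replicates 3 and 6, limma-voom 7 of 11515 and edgeR 2 of 11515. edgeR with no filter called 5 of 26471 genes and log2(TPM + 1) called 1.

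The count of 5 members lower at an unadjusted p under 0.05 became 3 without WT replicates 3 and 6 in both edgeR and DESeq2. It was 3 with library totals in place of TMM, 3 with protein-coding transcripts only and 2 with log2(TPM + 1). With log2(TPM + 0.1) it was 1, as with log2(TPM + 1) and no filter. The count rose to 7 with limma-voom, and to 6 with DESeq2, no filter, 1 CPM in 8 libraries or length-scaled TPM counts. It stayed at 5 with DESeq2 size factors or the letter covariate, and ran from 4 to 6 with 1 library left out. The median of the tested members ran from −0.42 to −0.23 with 1 library left out and was −0.0563 with log2(TPM + 1) and no filter, a setting that called 546 of 26975 genes after centring on a median that includes nearly empty genes. There the complement median was −0.0134 and the MHC class I median 0.32, against −0.47 with protein-coding transcripts only, where H2-K1 was at −0.56. The transcription factor median rests on Sall1 alone, and was positive wherever Spi1 and Irf8 entered, at 0.32 (DESeq2), 0.28 (DESeq2 without WT replicates 3 and 6), 0.33 (no filter), 0.33 (1 CPM in 8 libraries) and 0.33 (log2(TPM + 1), no filter). Among related genes, without WT replicates 3 and 6 there was 1 other complement gene lower at an unadjusted p under 0.05 in place of 3, 1 other lysosomal gene higher in place of 0, and 0 genes of activated microglia lower in place of 1.

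The direction of 11 members changed under at least 1 alternative, and the cause was not tested. With log2(TPM + 1) the log2 fold change was 0.0488 for Selplg, 0.11 for Itgam, −0.22 for Cd68, 0.0421 for H2-D1 and 0.34 for H2-K1. With log2(TPM + 0.1) it was 0.40 for Gpr34, 0.16 for Selplg, 0.12 for Itgam, 0.084 for H2-D1 and 0.33 for H2-K1. With log2(TPM + 1) and no filter it was 0.0119 for Csf1r, 0.0131 for P2ry12, 0.26 for Gpr34, 0.33 for Selplg, 0.39 for Itgam, 0.14 for Ctss, 0.0783 for Mpeg1, 0.32 for H2-D1 and 0.62 for H2-K1. With length-scaled TPM counts it was 0.0859 for Selplg, 0.63 for Itgam, −0.0242 for Cd68, 0.0348 for H2-D1 and 0.25 for H2-K1. Without WT replicates 3 and 6 it was, in edgeR and DESeq2, 0.33 and 0.35 for Ptprc, 0.0068 and 0.0078 for Mpeg1 and 0.16 and 0.16 for H2-K1. With limma-voom it was 0.0176 for Mpeg1 and 0.35 for H2-K1, with library totals 0.0091 for H2-D1, and with protein-coding transcripts only 0.0087 for H2-D1. With 1 library left out, Gpr34 ran from −0.20 to 0.23 (above 0 without any one of Fmr1-KO replicates 2 and 6 and WT replicates 6, 7 and 8) and Ptprc from −0.73 to 0.48 (above 0 without WT replicate 6). Cd68 ran from −0.11 to 0.22 (below 0 without any one of Fmr1-KO replicates 1 and 8 and WT replicate 2) and Mpeg1 from −0.24 to 0.0445 (above 0 on leaving out Fmr1-KO replicate 6 or WT replicate 3). H2-D1 ran from −0.14 to 0.11 (above 0 without any one of Fmr1-KO replicates 1, 2 and 4 and WT replicates 1, 5, 7 and 8) and H2-K1 from −0.25 to 0.0643 (above 0 without WT replicate 3). No paired analysis was possible because the animal numbers in the labels are not shared between the genotypes, and the replicate numbers used here only follow the order of the samples. Depth is a limit, since 8 of 34 members held at most 117 estimated counts over all libraries and did not pass the filter.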
